A study of Homo sapiens with 6 samples.

Results

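The 10 genes described here encode the AP-1 subunits JUN, JUNB, JUND, FOS, FOSB, FOSL1, FOSL2 and ATF3, the early growth response factor EGR1 and the stress-response protein IER3. They were chosen by name from 52989 genes with a matched transcript, and their estimated counts were summed over all transcripts of each gene. A minimum mean of 50 counts was set for a gene to be measured, and 11908 genes reached it, among them 9 of the 10. FOS, with a mean of 40.2 counts, fell below it and is described by its counts.

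AP-1 is a family of dimeric leucine zipper factors. JUN proteins pair with one another or with FOS or ATF proteins, whereas FOS proteins need a JUN partner to bind DNA. Most of these genes are immediate early genes: growth factor, stress and cytokine signals switch on their transcription within minutes, and their mRNAs are removed quickly again. Part of that short life comes from AU-rich elements in the 3′ UTR, the kind of sequence that ZFP36L1 and its relatives bind to recruit the deadenylation and decay machinery. In carcinoma cells AP-1, and FOSL1 in particular, is known for driving protease, cytokine and migration genes.

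All libraries came from J82, an established human bladder cancer line, with ZFP36L1 under a doxycycline-switched promoter (the tet-ZFP36L1 line) or as the control line (tet-control). Each line was taken without doxycycline (0 h) and after 6 and 24 h with it, at 1 µg/mL, so that there were 6 groups of 1 library. Both lines received doxycycline, and the labels do not say whether a line is 1 clone. Fewer cells of a kind and less RNA per cell cannot be told apart in such bulk samples. No group had a replicate and no test between groups was run. The 95% intervals given cover counting error alone, and variation between cultures is not in them.

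Estimated counts per library totalled 20739025 to 21380480. ZFP36L1 itself stood at 206.0 to 233.8 CPM (counts per 1000000 counts, TMM-scaled) in tet-control and in uninduced tet-ZFP36L1, and after induction reached 3127 CPM (6 h) and 3133 CPM (24 h), as the labels say. KRT7, KRT8 and KRT18 were present at 99.4 TPM or more in each library, while 9 of 18 urothelial markers, among them KRT5, KRT20, UPK2 and UPK3A, were under 10 counts in each. The leukocyte genes PTPRC and CD3E were also under 10 counts in each. The leukocyte list as a whole summed to 1.44 to 8.79 TPM in tet-control and 12.2 to 32.2 TPM in tet-ZFP36L1, nearly all of it CD68, a macrophage lysosomal gene, at 1.17 to 8.57 and 11.7 to 31.3 TPM. Its part in the results was not tested. The lines were not alike before induction: FN1, which encodes fibronectin, was at 101.1 TPM in uninduced tet-control and 2579 TPM in uninduced tet-ZFP36L1. One library stood apart, that of tet-ZFP36L1 at 24 h, with 15694 genes of at least 10 counts against 14514 to 14955 elsewhere and a TMM factor of 1.11 against 0.941 to 1.01. The 24 h induction differences, log2 values defined with the main comparison, leaned with expression level, from a median of 0.23 in the lowest of 5 expression classes to -0.21 in the highest. The part of this lean in the members' values was not tested.

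The members' 3′ UTRs were searched for ATTTA and for the longer TATTTAT, the core of a ZFP36-family site, on the mRNA strand, counting overlapping words. An ATTTA inside a TATTTAT counts for both. The annotated transcript with the highest mean TPM was used for each gene. TATTTAT was present in 8 of 10 members, against 27.2% of 11037 measured protein-coding genes, and 2 or more copies were present in 3, against 10.2%. A match is a description of the sequence and not a measured site. IER3 had 4 TATTTAT words in a 3′ UTR of 737 bases, FOS had 2 in 806 bases and FOSL2 had 2 in 4864 bases. JUN, JUND, FOSB, FOSL1 and ATF3 had 1 each, and JUNB and EGR1 had none. The lines below give the 29-base stretch with the most such words for some of the members, 5′ to 3′ on the mRNA strand, with the words in capitals. They were read from the GENCODE 29 transcripts, with positions on GRCh38.
IER3, chr6:30743648-30743676, minus strand: aattaaTATTTATatgTATTTATgtacgt
FOSL1, chr11:65892272-65892300, minus strand: agggcagctgcTATTTATtttcctaaaga
FOSL2, chr2:28416349-28416377, plus strand: attgacATTTAttttatTATTTATtttaa
JUND, chr19:18279998-18280026, minus strand: cgattctgcccTATTTATgtttctactcg
FOS, chr14:75282058-75282086, plus strand: tgtgtttttaATTTATTTATtaagatgga
EGR1, chr5:138469064-138469092, plus strand: ctgaaaatgtaaATTTAtaaatatattca
IER3 is shown because it was the member that was lower after induction by the call used below, and EGR1 because it was higher. FOSL1, FOSL2 and JUND are shown because their own levels were lower at some time, and FOS because AU-rich elements are best known from it. In tet-ZFP36L1 the own log2 changes of JUNB (-0.42 at 6 h) and FOSB (-0.83 at 24 h) were also below 0. Their stretches are not shown, and JUNB has no TATTTAT word. The transcripts of JUN, JUNB and JUND in the deposited files differ in length from those of GENCODE 29 (1870 against 1863 bases for JUND), so their 3′ UTRs may differ in part.

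Levels of different genes are compared per length, in deposited TPM summed per gene. FOSL1 was the highest member in each library, at 182 to 310 TPM (309.6 in uninduced tet-ZFP36L1). JUN at 47.0 to 68.3 TPM, IER3 at 28.8 to 133.0, JUND at 26.8 to 58.0, FOSL2 at 39.1 to 63.3 and JUNB at 25.2 to 50.7 formed a second tier, whose ranges over the libraries overlap. EGR1 ranked 7th in each library, at 6.98 to 28.0 TPM, a range that reaches into those of JUNB and JUND. ATF3 at 1.58 to 6.67, FOS at 0.864 to 3.57 and FOSB at 0.533 to 3.18 were lowest, with ranges that overlap. The most abundant AP-1 mRNA in these cells was thus FOSL1, and the classical FOS was scarce. The 8 AP-1 mRNAs summed to 446 to 457 TPM in the 3 tet-control libraries. For tet-ZFP36L1 the sum was 520.1 TPM (0 h), 344.4 TPM (6 h) and 413.9 TPM (24 h). FOSL1 made up 59.5%, 52.9% and 49.3% of these sums, and 52.3% to 61.5% in tet-control. JUNB made up 7.82%, 8.51% and 12.2% in tet-ZFP36L1 at those times. The TPM sums are not TMM-scaled, and the TMM factor of tet-ZFP36L1 was 0.973 at 6 h and 1.11 at 24 h. FOSL1 was at 182.3 and 203.9 TPM in these 2 libraries, but at 197.9 and 197.3 TMM-scaled CPM. The higher sum at 24 h than at 6 h therefore depends in part on the scaling.

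**Figure D1:**
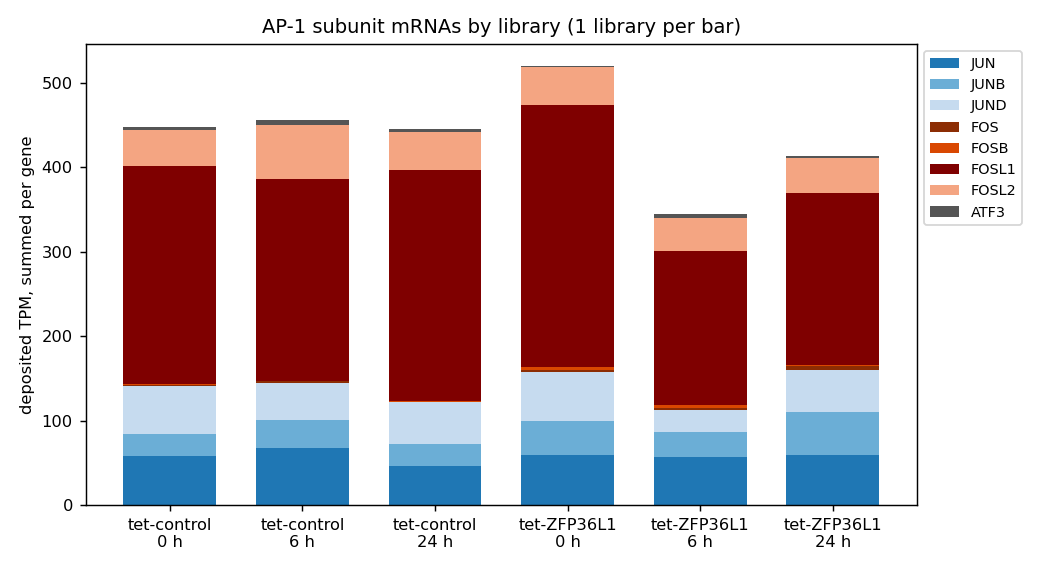
Stacked bars give the deposited TPM of the 8 AP-1 genes, summed per gene, in each of the 6 libraries. FOSL1 is the largest segment in each bar, and the bar of tet-ZFP36L1 at 6 h, at 344.4 TPM, is the lowest.

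The main comparison asked which members differed after induction of ZFP36L1 beyond the change in tet-control over the same time. No library without doxycycline was taken at 6 or 24 h. Effects of doxycycline, of time in culture and of handling therefore cannot be told apart in the tet-control change. To obtain the induction difference, the log2 change of tet-control since 0 h was subtracted from that of tet-ZFP36L1, on the log2(CPM + 0.5) scale, which understates changes of low genes. A gene was called where this difference and the change in tet-ZFP36L1 itself were both at least 2-fold in the same direction. Both times share the 0 h libraries. At 6 h, 1 of 9 members was called lower, IER3, against 2.54% of all measured genes, and 1 was called higher, EGR1, against 0.739%. At 24 h the same call held for IER3 (background 4.98% lower) and EGR1 (2.74% higher). For the other 7 measured members the call was not met at either time. The median induction difference of the 9 was -0.76 at 6 h and -0.08 at 24 h, beside -0.01 and -0.02 over all measured genes. Counting intervals are narrower for genes with more counts, and the shares over all genes given beside them, here and below, are not matched for count. With counting error alone, 7 of the 9 had an interval below 0 at 6 h, against 31.1% of all genes, and 4 at 24 h, against 36.7%. An interval above 0 was found for EGR1 at 6 h (29.5% of all genes) and for 4 members at 24 h, JUN, JUNB, ATF3 and EGR1 (30.7%). By the change within tet-ZFP36L1 alone, JUND and IER3 were at least 2-fold lower at 6 h (background 5.43%) and ATF3 and EGR1 at least 2-fold higher (2.1%), while at 24 h these were IER3 (6.24%) and EGR1 (3.38%).

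**Figure D2:**
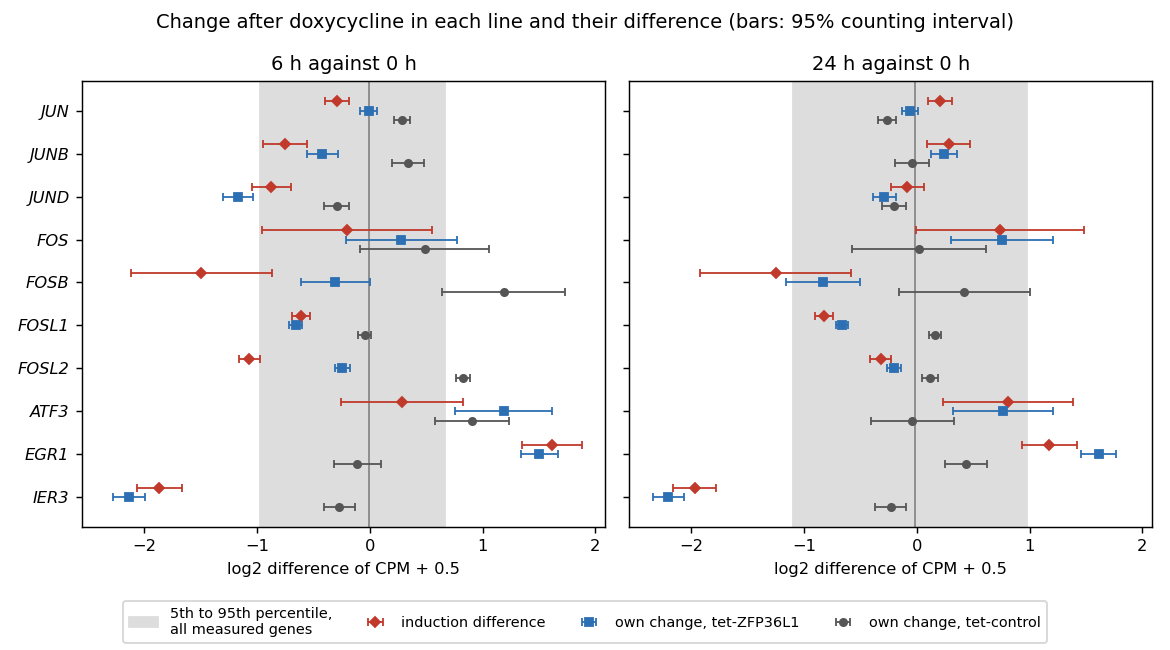
Points give log2 changes of CPM + 0.5 from 0 h in each line and their difference, at 6 h (left) and 24 h (right), with 95% counting intervals as bars and the span from the 5th to the 95th percentile of the induction differences of all measured genes in grey. The induction differences of IER3 and FOSB lie to the left and that of EGR1 to the right of the grey span at both times. That of FOSL2 lies to the left at 6 h.

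IER3 (GRCh38 chromosome 6, 30743199 to 30744554, minus strand) is a short-lived product of NF-kB and growth factor signalling that affects survival, and its mRNA is a known target of the ZFP36 family. Its level in tet-ZFP36L1 was 109.6 CPM (0 h), 24.5 CPM (6 h) and 23.4 CPM (24 h). For tet-control the levels were 47.1, 38.9 and 39.9 CPM. The uninduced tet-ZFP36L1 library was therefore the highest of the 6 and both induced ones the lowest. Its own change in tet-ZFP36L1 was -2.14 (interval -2.28 to -2.0) at 6 h and -2.20 (-2.34 to -2.07) at 24 h. In tet-control the changes were -0.27 (-0.41 to -0.13) and -0.23 (-0.37 to -0.10), and the induction differences came to -1.87 (-2.06 to -1.67) and -1.97 (-2.16 to -1.78). Only 0.613% and 0.554% of measured genes had lower differences. The high start enters these values: at 0 h IER3 was 2.32 times as high as in tet-control, and against tet-control at the same time it was -0.66 (-0.82 to -0.49) at 6 h and -0.76 (-0.92 to -0.60) at 24 h, under 2-fold. The antisense gene IER3-AS1 overlaps its exons and held at most 15 counts in a library.

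EGR1 (GRCh38 chromosome 5, 138465490 to 138469315, plus strand) is a zinc finger factor switched on by ERK signalling through serum response elements. Its level in tet-ZFP36L1 was 19.5 CPM (0 h), 56.2 CPM (6 h) and 60.6 CPM (24 h), beside 18.8, 17.4 and 25.7 CPM in tet-control. Both induced libraries were more than 2-fold above each of the other 4, and before induction the lines differed by 0.05 (-0.15 to 0.25). The induction difference was 1.61 (1.35 to 1.88) at 6 h and 1.17 (0.93 to 1.42) at 24 h, when tet-control itself was 0.44 (0.25 to 0.63) above its 0 h level. At 6 h, 99.5% of measured genes had a lower difference. Its mRNA has a single annotated transcript in the files, so no division between transcripts enters its values. In the 300-base RefSeq promoter (GRCh38.p14, 250 bases before to 50 after the start), EGR1 held 2 CArG boxes, the core of a serum response element, and none of the other 7 members with an entry held one. FOSL1 and IER3 were not matched. Of 35116 promoters 1.29% held a CArG box on either strand. Bases further from the start were not searched, so absence in the other members holds for this stretch alone. The same promoters were also searched for other words. TGACGTCA was held by JUND (1.85% of all promoters), TGANTCA by FOSL2 (7.71%) and GCGNGGGCG by EGR1 (9.43%). The CArG stretches are shown because EGR1 was the only member called higher. They begin 10 bases before boxes at -105 and -83 from the start, in capitals.
EGR1 box at -105, chr5:138465364-138465393, plus strand: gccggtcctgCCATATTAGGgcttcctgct
EGR1 box at -83, chr5:138465386-138465415, plus strand: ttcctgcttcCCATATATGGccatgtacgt

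**Figure D3:**
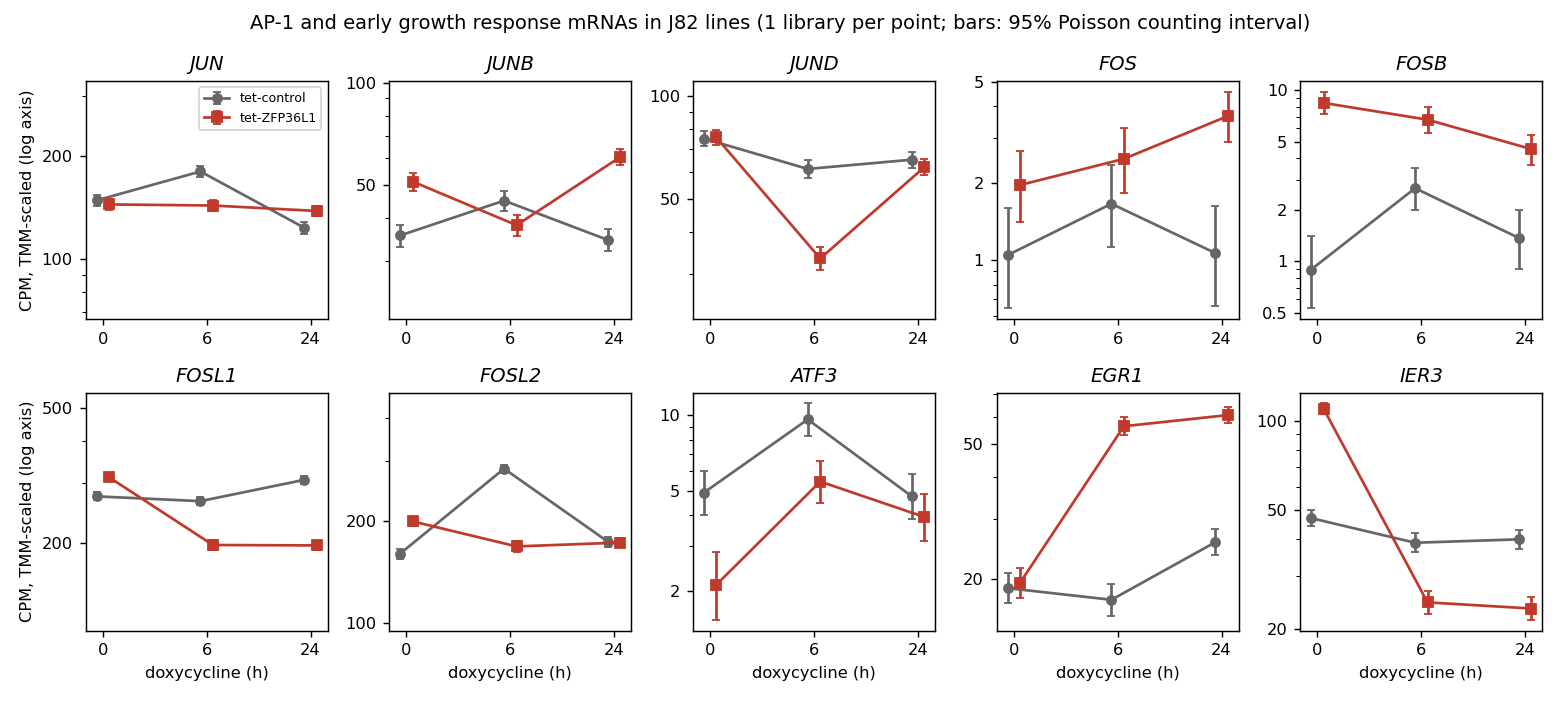
Points give CPM (log axis, a separate range per gene) of each member against hours of doxycycline (evenly spaced) in tet-control (grey circles) and tet-ZFP36L1 (red squares), 1 library each, with 95% Poisson counting intervals. EGR1 separates upward and IER3 downward in tet-ZFP36L1, JUND is low at 6 h alone, and FOSL2, FOSB and ATF3 peak at 6 h in tet-control.

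Of the JUN genes in tet-ZFP36L1 at 6 h, JUND had the largest change from 0 h and JUN the smallest. JUND, an AP-1 subunit usually present at steady levels and often opposed to growth, was at 75.7 CPM (0 h), 33.4 CPM (6 h) and 61.8 CPM (24 h) in tet-ZFP36L1, beside 75.1, 61.2 and 65.1 CPM in tet-control. The tet-ZFP36L1 library at 6 h was the lowest and the other 5 lay between 61.2 and 75.7 CPM. Its own change was -1.17 (-1.30 to -1.04) at 6 h and -0.29 (-0.39 to -0.18) at 24 h, and from 6 to 24 h it was 0.88 (0.75 to 1.01) higher. The induction difference was -0.87 (-1.05 to -0.70) at 6 h, short of 2-fold, and -0.08 (-0.23 to 0.06) at 24 h.

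JUNB, which pairs with FOS proteins and is often induced with them, was at 51.3 CPM (0 h), 38.2 CPM (6 h) and 60.6 CPM (24 h) in tet-ZFP36L1, beside 35.6, 45.1 and 34.6 CPM in tet-control. The lines moved in opposite ways at 6 h, by -0.42 (-0.56 to -0.29) and 0.34 (0.19 to 0.48), a difference of -0.76 (-0.95 to -0.56). At 24 h the difference was 0.28 (0.09 to 0.47), and JUNB stood 0.80 (0.67 to 0.93) above tet-control. The gene HOOK2 overlaps it on the other strand, with 184 to 569 counts against 683 to 1325 for JUNB, and was highest in the same library. JUN, the founding subunit, varied least within tet-ZFP36L1: 144.6, 143.6 and 138.4 CPM in tet-ZFP36L1 and 148.6, 180.7 and 123.5 CPM in tet-control. Its induction differences, -0.29 (-0.40 to -0.19) and 0.20 (0.10 to 0.31), came from tet-control, since the own changes in tet-ZFP36L1 were -0.01 (-0.09 to 0.06) and -0.06 (-0.14 to 0.01).

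FOSL1, which encodes FRA-1, was lower at both times in tet-ZFP36L1. There it was at 312.9 CPM (0 h), 197.9 CPM (6 h) and 197.3 CPM (24 h), against 275.0, 266.2 and 307.4 CPM in tet-control. Both induced libraries lay below the other 4. The own change was -0.66 at both times (-0.72 to -0.60 and -0.72 to -0.61), and the induction difference was -0.61 (-0.69 to -0.53) and -0.82 (-0.90 to -0.75). These are under 2-fold, and 13.3% and 10.3% of measured genes had lower differences. FOSL1 shares 6.86% of its 31-base words with the pseudogene FOSL1P1, to which some of its reads could have been assigned.

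The lower FOSL1 level was not spread evenly over its annotated transcripts. FOSL1-201, with 4 exons and 56.3% to 69.9% of the gene's counts, had changes of -0.35 (6 h) and -0.41 (24 h) in tet-ZFP36L1, whereas FOSL1-202, with 2 exons, had -1.27 and -1.43. FOSL1-202 held 1827.4 (0 h), 709.7 (6 h) and 718.4 (24 h) estimated counts in tet-ZFP36L1, and 1327.0, 1449.0 and 1723.3 in tet-control. FOSL1-202 lacks 413 bases of FOSL1-201 and has 171 bases of its own. The annotated 3′ UTR has 837 bases in FOSL1-202 and 666 in FOSL1-201. FOSL1-203, with 12.9% of the gene's counts over all libraries, had changes of -0.93 and -0.58 in tet-ZFP36L1, beside -0.34 and -0.29 in tet-control. How kallisto divides reads between overlapping transcripts is an estimate, and its error is not in the files.

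FOSL2, which encodes FRA-2, showed a sharper division. The gene was at 199.3 CPM (0 h), 168.3 CPM (6 h) and 172.8 CPM (24 h) in tet-ZFP36L1, beside 160.3, 284.7 and 173.7 CPM in tet-control. The tet-control library at 6 h was the highest, and it carried most of the induction difference of -1.07 (-1.16 to -0.98) at 6 h: the own changes were -0.24 (-0.31 to -0.18) in tet-ZFP36L1 and 0.83 (0.76 to 0.89) in tet-control. With deposited TPM this difference was -0.77. At 24 h it was -0.32 (-0.42 to -0.23). FOSL2-202, which has 86 bases not in FOSL2-201 and lacks 965 of that transcript's bases, held 775.3 (0 h), 98.1 (6 h) and 209.6 (24 h) estimated counts in tet-ZFP36L1. In tet-control it held 739.6, 1298.9 and 986.1. Its share of the gene's counts was 22.9% to 28.7% in tet-control, 19.1% in uninduced tet-ZFP36L1, and 3.02% and 5.55% at 6 and 24 h. FOSL2-201 had changes of 0.01 and 0.02 on the log2 scale in tet-ZFP36L1, and both transcripts carry the same annotated 3′ UTR length, 4864 bases.

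**Figure D4:**
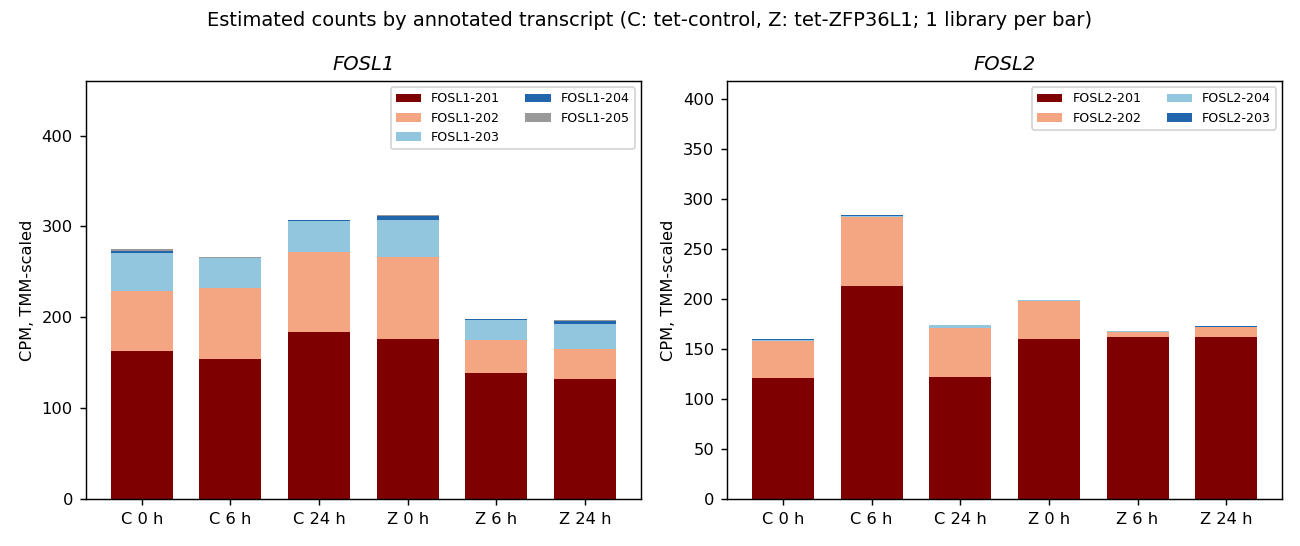
Stacked bars give TMM-scaled CPM of each annotated transcript of FOSL1 (left) and FOSL2 (right) in the 6 libraries, with tet-control as C and tet-ZFP36L1 as Z. The FOSL2-202 segment nearly closes in both induced tet-ZFP36L1 libraries, at 3.02% and 5.55% of the gene's counts.

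FOS and FOSB, the rapidly induced FOS genes, were scarce. For FOS, 40 (0 h), 48 (6 h) and 80 (24 h) counts were found in tet-ZFP36L1, and 21, 31 and 21 in tet-control. The 24 h tet-ZFP36L1 library was the highest, and its own change was 0.76 (0.30 to 1.21), while the interval of the induction difference, 0.74 (-0.01 to 1.48), included 0. At 6 h the difference was -0.21 (-0.96 to 0.55), not detectable at this depth. FOSB had 172, 130 and 99 counts in tet-ZFP36L1 and 18, 50 and 27 in tet-control, so that the tet-ZFP36L1 libraries were all above those of tet-control. At 0 h it was 6.42-fold higher on the CPM + 0.5 scale, a log2 difference of 2.68 (2.21 to 3.16). Its induction differences of -1.49 (-2.12 to -0.87) and -1.25 (-1.92 to -0.58) were past 2-fold, yet the own changes in tet-ZFP36L1 were -0.31 (-0.61 to 0.00) and -0.83 (-1.16 to -0.50). At 6 h the change in tet-control, 1.19 (0.64 to 1.73), made up most of it. The FOSB differences were -0.63 and -0.55 with deposited TPM, and -0.58 and -0.61 with a pseudocount of 5. By the most abundant transcript alone, FOSB-202, the FOSB difference at 24 h was 0.18. That transcript held 0 estimated counts in tet-control at 0 and 24 h, so no tet-control change enters this value. In tet-ZFP36L1 it held 71.3 (0 h) and 85.3 (24 h).

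ATF3, a stress-induced ATF member that pairs with JUN proteins, was higher at 6 h in both lines. Its level was 2.11 CPM (0 h), 5.44 CPM (6 h) and 3.94 CPM (24 h) in tet-ZFP36L1, from 43, 105 and 86 counts, and 4.91, 9.63 and 4.76 CPM in tet-control. The 6 h library was the highest in each line. The own changes at 6 h were 1.19 (0.76 to 1.62) and 0.90 (0.58 to 1.23), so the induction difference, 0.28 (-0.26 to 0.82), included 0. At 24 h ATF3 was back at its 0 h level in tet-control, -0.04 (-0.41 to 0.33), but not in tet-ZFP36L1, 0.76 (0.32 to 1.21), a difference of 0.81 (0.23 to 1.38). ATF3 was 2.07-fold lower in tet-ZFP36L1 than in tet-control at 0 h, which enters that difference, and at 24 h the lines differed by -0.25 (-0.62 to 0.13).

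The change in tet-control at 6 h, where ZFP36L1 was not induced, was itself part of most differences. Of the 9 measured members, 5 had a counting interval above 0 there (JUN, JUNB, FOSB, FOSL2 and ATF3), against 32.2% of all genes, and 2 below 0 (JUND and IER3), against 32.0%. FOSB alone was at least 2-fold higher (background 2.43%) and none was 2-fold lower (2.23%). From 6 to 24 h the changes of these 5 in tet-control were -0.38 (JUNB) to -0.95 (ATF3), values that share the 6 h library by which the 5 were picked and so are a description. EGR1 and FOSL1 did not share this course, with tet-control changes of -0.11 (-0.32 to 0.10) and -0.05 (-0.10 to 0.01) at 6 h. At 0 h, before any doxycycline, FOSB and IER3 were at least 2-fold higher in tet-ZFP36L1 (background 5.05%) and ATF3 was at least 2-fold lower (2.77%). Between the lines at 6 h, FOSB and EGR1 were at least 2-fold higher in tet-ZFP36L1 (5.14%) and no member was lower (6.13%). At 24 h this was again FOSB and EGR1 (8.91%), with none lower (8.32%).

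The induction differences were also set beside the number of AU-rich words. IER3, with 4 TATTTAT words, was lowest at both times, and EGR1, with none, was highest. JUNB, also with none, was at -0.76 at 6 h and 0.28 at 24 h, and the 5 members with 1 word ranged from -1.49 (FOSB) to 0.28 (ATF3) at 6 h. Genes over the whole table with 4 or more words, 226 in number, had a median of -0.47 at 6 h and a lower quartile of -0.82, above the -1.87 of IER3. Those with none, 8037 in number, had a median of 0.09 and an upper quartile of 0.33, below the 1.61 of EGR1. Such positions were not particular to IER3 and EGR1. The quartiles of genes with 1 word were -0.57 and 0.05 at 6 h, and FOSB, FOSL1, JUND and ATF3 lay outside them. JUNB and FOSL2 also lay outside the quartiles of their classes at 6 h.

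**Figure D5:**
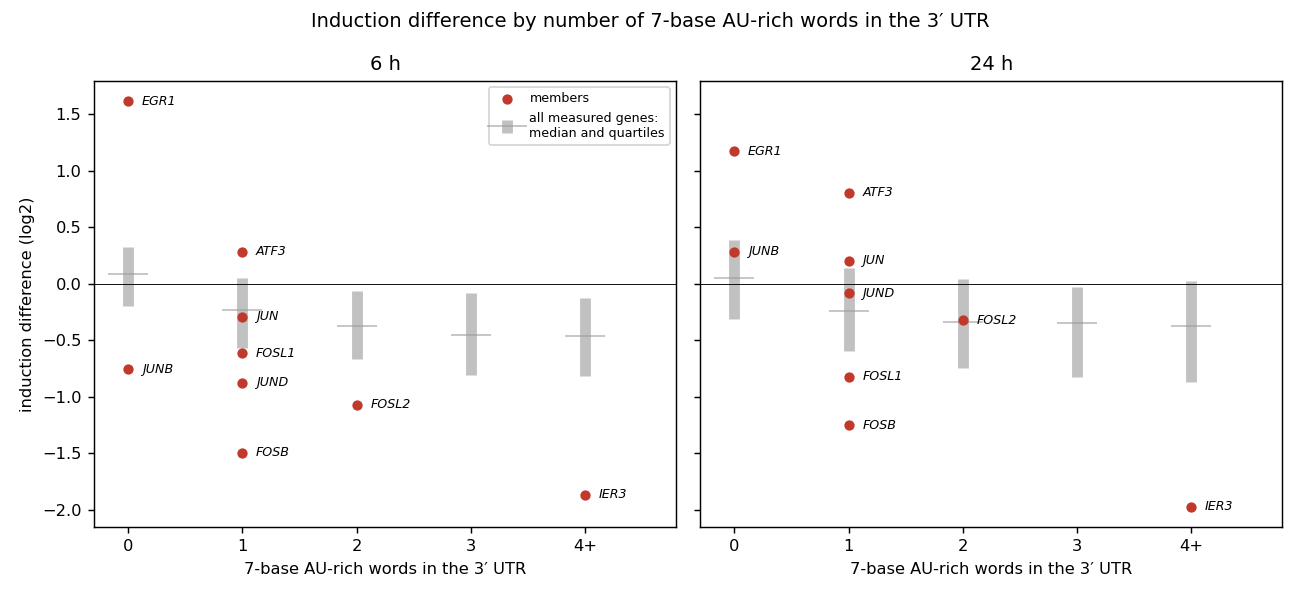
Red points give the induction difference (log2) of the 9 measured members against the number of 7-base AU-rich words in the 3′ UTR, at 6 h (left) and 24 h (right), and grey bars the median and quartiles of all measured protein-coding genes in each class. IER3, with 4 words, and EGR1, with none, lie outside the quartiles of their classes at both times, as do FOSB, FOSL1 and ATF3. JUNB, JUND and FOSL2 lie outside at 6 h alone, and JUN at 24 h alone.

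For members with a log2 range of at least 1 over the 6 libraries, the genes with the most similar course were sought among measured protein-coding genes, by the root-mean-square distance of log2 profiles, each centred on its own mean. Nearest to EGR1 were SERTAD1 (distance 0.20) and ACTA2 (0.22), and SERTAD1 was at 15.5 CPM (0 h), 44.7 CPM (6 h) and 43.7 CPM (24 h) in tet-ZFP36L1. Nearest to IER3 were TGFA (0.19), an EGF receptor ligand, at 117.6, 32.7 and 24.0 CPM in that line, and FBXO27 (0.22). JUND was nearest to SMCO4 and SYTL4 (both 0.08), ATF3 to WDR90 (0.09) and GBX2 (0.14), and FOSB to RAP1GAP2 (0.20) and CCDC9B (0.23). With 6 points per profile and 1 library at each, these are descriptions.

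Genes around the members were counted by the same call in lists of pathway genes. Over all measured genes this call took 2.54% lower and 0.739% higher at 6 h, and 4.98% lower and 2.74% higher at 24 h, the shares against which each count below is read. Of 10 measured partners that can pair with AP-1 subunits, 1 was called lower at 6 and at 24 h, MAFG, a small MAF protein, and none higher, with medians of -0.52 and -0.41. MAFG had -1.55 (-1.73 to -1.36) at 6 h and -1.21 at 24 h, MAFF -0.84 and -0.43, and JDP2, a repressor of AP-1, -0.71 and 0.81. With a pseudocount of 5 no partner was called lower at 6 h. Of the EGR family and its NAB co-repressors, 2 of 6 were measured besides EGR1 and neither was called. NAB1 was at -0.33 (-0.50 to -0.16) at 6 h and NAB2, itself an EGR1 target that feeds back on it, at -0.11 (-0.40 to 0.19).

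Of 23 other measured immediate early genes, 1 was called lower at 6 h (KLF2), 2 at 24 h (KLF2 and KLF6), and 1 higher at 24 h (KLF4, at 1.32), with medians of -0.13 and -0.02. In a list of this size these counts lie near the shares over all genes. The zinc finger factor KLF6 was at 173.0 CPM (0 h), 89.3 CPM (6 h) and 64.1 CPM (24 h) in tet-ZFP36L1 and KLF2 at 19.2, 7.72 and 6.96 CPM. GADD45B, a stress sensor, had a 6 h difference of 1.26 (1.13 to 1.39), from 0.58 in tet-ZFP36L1 and -0.68 in tet-control. The difference of KLF2, -1.15 at 6 h and -1.34 at 24 h, was under 2-fold with a pseudocount of 5 (-0.84 and -0.97), and at 24 h also with deposited TPM (-0.76) and with the most abundant transcript alone (-0.18). The call of KLF4 was also lost with a pseudocount of 5. Among 19 measured upstream kinases and factors, MAPK9, which encodes the JUN kinase JNK2, was called lower at both times, at -1.27 (-1.42 to -1.12) and -1.32, from 96.1 to 39.2 and 40.5 CPM, and none was called higher. By its most abundant transcript alone MAPK9 was at -0.85 at 24 h. MAPK8, the gene of JNK1, was at -0.98 and -0.84, and the ERK kinase gene MAP2K1 at -0.85 and -0.95. The list's medians were -0.11 and 0.00, and 1 gene of 19 is near the share over all genes at 24 h.

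The list of known AP-1 targets, which holds FOSL1 itself, had more genes called lower than any other list counted here. The lists were chosen with earlier results of these data known, so this order is a description. Of 20 measured, 8 were called lower and 0 higher at 6 h, against 2.54% and 0.739% of all genes. The median was -1.06, and -0.01 over all genes. At 24 h, 10 were called lower and 1 higher, against 4.98% and 2.74%, with medians of -1.06 and -0.02. The 1 higher, ITGB4, was not called with deposited TPM or with a pseudocount of 5. The count lower at 6 h was 6 under each of those settings, and 11 with a 1.5-fold threshold. Against tet-control at the same time, 8 were lower and 3 higher at 6 h, and 7 lower and 3 higher at 24 h. The 8 called lower at 6 h were PLAU, PLAUR, IL6, CXCL8, CCND1, VEGFA, CD44 and PTGS2. AU-rich words in the 3′ UTRs of these genes are not given here, and the cause of their lower levels was not tested. The largest differences at 6 h were those of IL6 at -3.40 (-3.55 to -3.25), PLAU at -2.83 (-2.95 to -2.71) and CXCL8, the chemokine interleukin-8, at -2.76 (-2.83 to -2.69). CXCL8 was at 932.5 CPM before induction and at 220.6 CPM after 6 h of it, beside 221.4 and 356.4 CPM in tet-control. At 24 h it was at 192.8 CPM, against 156.9 CPM in tet-control. IL6 also started higher in tet-ZFP36L1, at 162.5 CPM against 44.6 CPM, whereas PLAU started lower, at 364.5 CPM against 585.5 CPM. These starts enter the differences. Tet-control was higher at 6 h by a median of 0.40 over this list, which enters the differences, and tet-ZFP36L1 itself had a median change of -0.78. HBEGF, a growth factor, was at 63.6, 227.8 and 69.6 CPM in tet-control and at 33.6, 20.7 and 15.6 CPM in tet-ZFP36L1. It was named after its values were seen.

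Of 14 measured genes known as EGR1 targets, 2 were called lower at 6 h (ICAM1 and CCND1), 2 at 24 h (THBS1 and CCND1), and none higher at either time, with medians of -0.51 and -0.62. The count lower at 24 h was 1 with plain CPM and with deposited TPM, and the latter also gave 1 at 6 h. The direction of EGR1 itself was the opposite. The adhesion receptor ICAM1 was at -2.06 (-2.15 to -1.97) and -0.66, and thrombospondin 1, THBS1, at -1.07 (-1.13 to -1.0) and -1.40, where tet-control was 1.35 above its 0 h level at 6 h and tet-ZFP36L1 0.28. CCND1, the cyclin D1 gene, is on both target lists and was at -1.27 (-1.32 to -1.21) and -1.86. With deposited TPM its 6 h difference was -0.97, under 2-fold.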

How the data were processed

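Total RNA of 6 J82 cultures was sequenced on the BGISEQ-500 after extraction with a column kit, per the labels' protocols. Kallisto, DESeq2 and the build hg19 are named without versions in the submitters' processing notes. The strand setting and annotation release are not stated in those sources. Each deposited table lists 196354 transcripts with estimated counts, which need not be whole, and TPM values that the authors' tool scaled to sum to 1000000 per library. Lengths in bases are other deposited columns.

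By their identifiers, 181854 transcripts were found in GENCODE 29 (GRCh38). Unmatched ones held 5.12% to 5.47% of estimated counts and were left out. Gene sums of the estimated counts, rounded to whole numbers, came to 19604891 to 20244775 per library. TMM factors (edgeR 4.0.16, R 4.3.3) were taken over genes whose mean count reached 10. No count test was run, because each group has 1 library. An additive fit of line and time was not made, since it takes both lines to respond alike. Intervals come from the delta method on the counts; reads carry no molecular identifiers and so are not independent molecules. Calls and counting intervals were tested on simulated Poisson counts, drawn and scaled with the same factors. That simulation could not test the scaling or variation between cultures. Python 3.11.15 with numpy 2.4.6 and pandas 2.3.3 was used.

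The members and gene lists were chosen with earlier results of these data known. The genes named from lists are the 3 with the largest difference at 6 h in each, beside those called and HBEGF. Likeness of course used the 2 nearest genes. The alternatives tried were size factors of DESeq2 1.42.0, plain CPM, deposited TPM, other pseudocounts, count minimums and thresholds, other reference libraries, and the most abundant transcript alone. Matching of unmatched transcripts through another table was not run.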

Additional observations from a re-analysis of the deposited data

Results flagged for a closer look

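In 4 cases the lines moved in opposite directions from 0 h, each outside its counting interval. The difference between the lines was not tested, since each group has 1 library. JUNB at 6 h had log2 changes of 0.34 (tet-control) and -0.42 (tet-ZFP36L1), a difference of -0.76. By the same order of lines, FOSL2 at 6 h had 0.83 and -0.24, a difference of -1.07, and at 24 h 0.12 and -0.21, a difference of -0.32. FOSL1 at 24 h had 0.16 and -0.66, a difference of -0.82.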

How the results depend on the processing

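Counts of called members were the same, 1 lower and 1 higher at each time, with DESeq2 size factors, plain CPM, deposited TPM, pseudocounts of 1 and 5, count minimums of 10 and none, and the most abundant transcript alone. At 6 h they were also 1 and 1 with scaling and minimum computed without the tet-ZFP36L1 24 h library, an alternative added after seeing the data. A 1.5-fold threshold gave 3 lower (JUND, FOSL1, IER3) at 6 h, and 3 lower (FOSB, FOSL1, IER3) and 2 higher (ATF3, EGR1) at 24 h. The induction difference alone gave 3 lower at 6 h (FOSB, FOSL2, IER3) and 2 at 24 h (FOSB, IER3). Against tet-control at the same time, 0 were lower and 2 higher (FOSB, EGR1) at each time. Among 756 log2 values of members under other settings, 648 lay within the counting interval of the main value and 107 outside it. In 1 more, a main value past 2-fold changed sign. Of these values 130 were induction differences, and 4 of the 130 had another sign. FOSB at 24 h was 0.18 by its most abundant transcript alone, which held 0 estimated counts in tet-control at 0 and 24 h. FOSL2 at 24 h was 0.05 by the same setting, JUND at 24 h 0.09 with plain CPM and ATF3 at 6 h -0.01 with a pseudocount of 5. The cause was not tested. Plain CPM moved the median of all genes at 24 h to 0.15 and deposited TPM to 0.10, and JUN at 24 h was 0.37 and 0.32 there. No paired analysis was possible because each group has 1 library and the labels carry no replicate number, and no library could be left out of a group for the same reason. FOS, at 21 to 80 counts, is limited by depth.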
